A study of Sus scrofa with 6 samples.

Results

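The endoplasmic reticulum (ER) is the compartment in which secreted and membrane proteins are folded. Chaperones such as the HSP70 protein BiP hold unfolded chains, protein disulfide isomerases make and rearrange disulfide bonds, and chains that fail to fold are sent back to the cytosol by ER-associated degradation. When unfolded protein builds up, the sensors IRE1 (gene ERN1), ATF6 and PERK (gene EIF2AK3) start the unfolded protein response. ATF6 and the transcription factor XBP1 then raise chaperone and degradation genes, while PERK lowers translation through eIF2alpha and raises the factor ATF4. In the gut the response is best known from secretory cells such as goblet, Paneth and plasma cells.

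The genes described here are ER chaperones, disulfide enzymes, degradation factors, translocation subunits and sensors, chosen by name for their known roles. That choice was made with earlier results of these data known. Shares set beside those of all tested genes therefore describe the set and do not test it. Of 38 named genes, 36 had a pig Ensembl identifier among the 21911 genes of the deposited table. SDF2L1 and DERL1 were not analysed here. The 36 genes comprised 11 chaperones and folding factors, 8 genes of disulfide formation, 9 of ER-associated degradation, 4 of translocation, and a last group of 4 that holds the 3 sensors and XBP1.

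The 6 samples were gut tissue of piglets. The labels put 3 of them under Control and 3 under SMP, and the design text sets piglets that drank a metasilicate-based alkaline mineral water against Control piglets. The labels give no gut segment, age or sex, no duration of drinking, and no statement that each sample came from its own piglet, so p-values measure the spread between these samples. The library totals behind the values were 15927028 to 18636198 in Control and 16816165 to 20712701 in SMP. Levels are in FPKM, a fragment count scaled to gene length and library total, and group values are means ± SD (n = 3). A log2 difference is the SMP mean minus the Control mean of log2(FPKM + 1). On that scale the change of weakly expressed genes is understated. Adjusted p-values come from limma over all 11471 genes tested. In these bulk samples, fewer cells of a type and less RNA per cell cannot be told apart.

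The tissue carried the markers of gut epithelium: 9 of 10 listed genes were found and tested, none was at 0 in any library, and their summed level was 2895 to 3549 FPKM in Control and 3518 to 3620 in SMP. The Y-linked gene EIF1AY was at 0.187, 0 and 0.0320 FPKM in Control and at 25.7, 29.6 and 23.9 in SMP, and SLC26A3, a chloride exchanger typical of the distal gut, was at 0.365 to 0.535 in Control and 19.4 to 20.9 in SMP. Sex, gut segment and treatment therefore cannot be told apart for any gene below. On the second principal component, which held 24.7% of the variance, Control replicate 2 (-38.6) and SMP replicate 3 (28.9) were at opposite ends. The other libraries lay between -6.1 (SMP replicate 1) and 15.1 (Control replicate 1), so that Control replicate 2 stood further apart than SMP replicate 3. Results that rest on them are also given without them.

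Several ER chaperones rose in SMP. No disulfide, sensor, degradation or translocation gene passed the test, nor did XBP1, which does not show that their levels were unchanged. Of the 35 genes whose mean reached 1 FPKM, 7 rose and 0 fell at an adjusted p under 0.05. Over all tested genes 3.5% rose and 2.1% fell. At an unadjusted p under 0.05, 17 of the 35 were higher and 1 was lower, beside 16.5% and 9.29% of all tested genes, and voom on the recovered whole numbers gave 8 higher and 0 lower, beside 4.05% and 2.35%. All 7 that rose were chaperones or folding factors. None of the 7 kept its call without Control replicate 3, SMP replicate 1 or SMP replicate 2, as described below. The median log2 difference was 1.02 for the 11 chaperones and folding factors, 0.50 for the 8 disulfide genes, 0.30 for the 4 sensors and XBP1, 0.13 for the 4 translocation genes and 0.10 for the 8 tested degradation genes. Over all tested genes it was 0.09. Under median-ratio scaling the median of the degradation genes was -0.01, and it was -0.05 without Control replicate 2, -0.04 without Control replicate 2 and SMP replicate 3, and 0.20 without Control replicate 3. After removal of the gene length trend the median of the translocation genes was -0.00341.

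**Figure D1:**
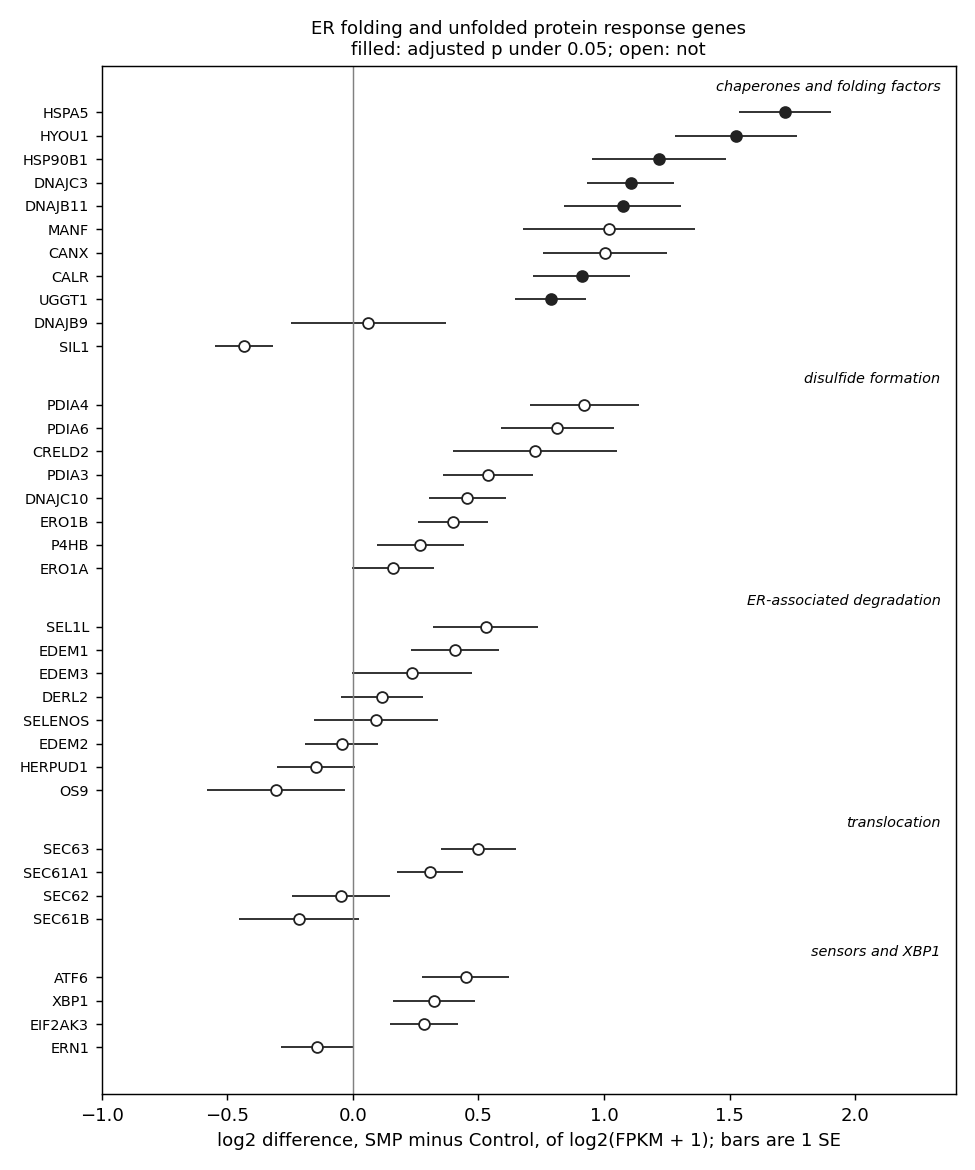
Log2 difference (SMP minus Control, log2(FPKM + 1) scale, horizontal axis) of the 35 tested genes, by role, with bars of 1 SE. Filled points passed an adjusted p under 0.05, and all 7 of them lie in the group of chaperones and folding factors, between 0.79 and 1.72.

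HSPA5 (ENSSSCG00000005601), which encodes BiP, the main HSP70 chaperone of the ER lumen and the partner that holds the sensors inactive, had the largest difference of the 35 genes. In replicate order, here and below, it was at 148, 112 and 140 FPKM in Control and at 472, 488 and 367 in SMP. The lowest SMP library was thus well above the highest Control library. Between means of 133 ± 18.8 and 442 ± 65.5 the rise was 3.31-fold, with a log2 difference of 1.72 (SE 0.18, adjusted p = 0.00775). Among the 11471 tested genes, this difference ranked 50 from the top. The recovered whole numbers of reads or read pairs were 4610 to 6668 in Control and 15755 to 25771 in SMP, so counting error was small beside the spread between libraries.

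HYOU1 (ENSSSCG00000015106) encodes a large HSP70-related protein that exchanges the nucleotide of BiP. It was at 20.8, 13.0 and 16.7 FPKM in Control and at 57.1, 57.4 and 36.8 in SMP. The groups did not overlap, and SMP replicate 3 was the lowest of its group. Group means were 16.8 ± 3.89 and 50.4 ± 11.8 (log2 difference 1.52, SE 0.24, adjusted p = 0.0237).

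HSP90B1 (ENSSSCG00000000849), the ER member of the HSP90 family, known as GRP94, was at 253, 135 and 218 FPKM in Control and at 510, 503 and 368 in SMP. Control replicate 2 was the lowest library and the groups did not overlap. Group means were 202 ± 60.4 and 461 ± 80.1 (log2 difference 1.22, SE 0.27, adjusted p = 0.0492). This call was lost with median-ratio scaling (0.0523), a pseudocount of 0.1 (0.0510), no filter (0.102) and the replicate block (0.0839).

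J-domain proteins bring clients to BiP, and among the folding factors DNAJC3 and DNAJB11 rose while DNAJB9 did not pass the test. DNAJC3 (ENSSSCG00000026082), also an inhibitor of PERK, was at 15.1, 9.84 and 12.5 FPKM in Control and at 26.6, 28.7 and 27.5 in SMP. Its 3 SMP libraries were nearly level (27.6 ± 1.03), and the rise was 2.22-fold (adjusted p = 0.0233). DNAJB11 (ENSSSCG00000011798) was at 16.5, 10.8 and 15.1 in Control and at 34.0, 36.3 and 22.7 in SMP, a rise of 2.20-fold with groups that did not overlap (adjusted p = 0.0485). The call of DNAJB11 was lost with a pseudocount of 0.1 (0.0509), no filter (0.0913) and the replicate block (0.0863). DNAJB9 (ENSSSCG00000016653), a J-domain protein that represses IRE1 and is itself a known target of XBP1, was at 5.95, 2.09 and 4.82 in Control and at 3.60, 3.97 and 5.22 in SMP. The groups overlapped, with a log2 difference of 0.06 (SE 0.31, adjusted p = 0.920) that turned negative with quantile normalization (-0.04), median-ratio scaling (-0.04) and removal of the length trend (-0.07), among others.

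The lectin cycle keeps N-glycosylated proteins in the ER until they are folded. Its chaperones are calreticulin (CALR) and calnexin (CANX), and UGGT1 adds back the glucose that lets them bind again. CALR (ENSSSCG00000013746) was at 353, 258 and 329 FPKM in Control and at 654, 625 and 487 in SMP, 1.88-fold higher (log2 difference 0.91, SE 0.19, adjusted p = 0.0448). UGGT1 (ENSSSCG00000015857) was at 8.14, 6.21 and 7.10 in Control and at 13.7, 13.2 and 12.2 in SMP, 1.82-fold higher (adjusted p = 0.0305). In both genes every SMP library was above every Control library. CANX (ENSSSCG00000014020) was at 116, 65.5 and 90.5 in Control and at 159, 162 and 220 in SMP. Its groups did not overlap either, but SMP replicate 3 was here the highest library, and the difference of 1.00 (SE 0.25) missed the threshold (adjusted p = 0.0625).

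The remaining folding factors did not pass the test. MANF (ENSSSCG00000032914), a small secreted protein that binds BiP, was at 34.8, 40.2 and 40.6 FPKM in Control and at 109, 103 and 44.1 in SMP. SMP replicate 3 was thus near the Control libraries while the other SMP libraries were far above them (adjusted p = 0.122). SIL1 (ENSSSCG00000024189), another nucleotide exchange factor of BiP, was the one gene of the 11 with a negative difference. It was at 8.55, 8.80 and 8.36 in Control and at 6.37, 5.85 and 6.02 in SMP, with groups that did not overlap. Its difference of -0.43 (SE 0.12) had an adjusted p of 0.0768, and over the alternatives its adjusted p ran from 0.00966 to 0.279, with the fit of all libraries missing the threshold and 4 alternatives passing it (median-ratio scaling, removal of the length trend, array weights, and a fit of the other 4 libraries without Control replicate 2 and SMP replicate 3).

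**Figure D2:**
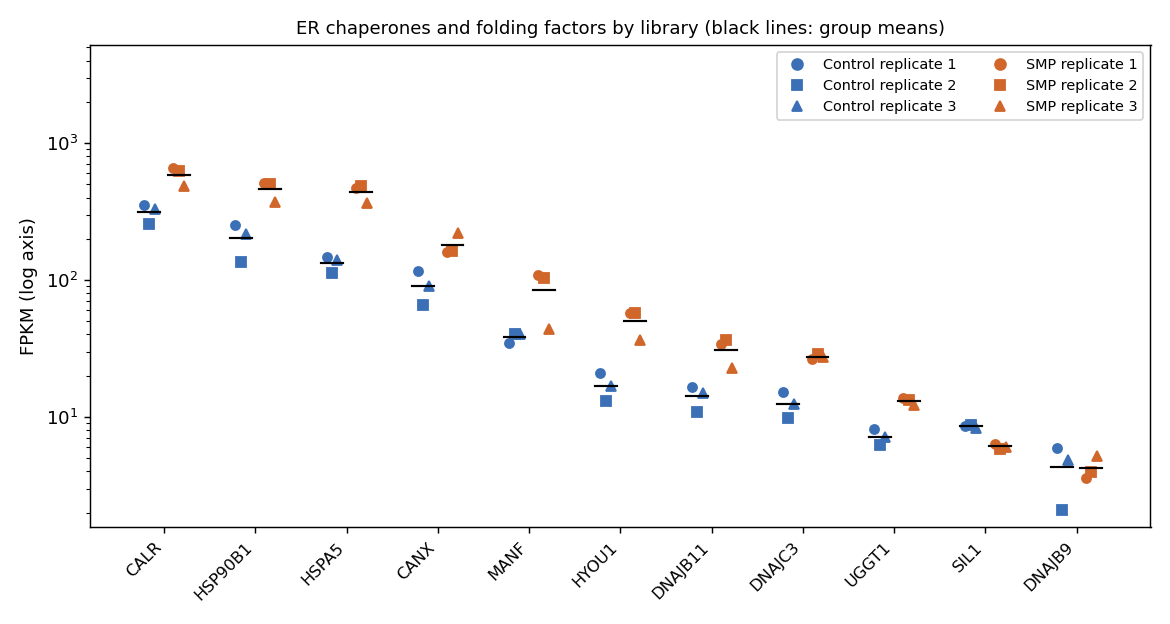
FPKM (log axis) of the 11 ER chaperones and folding factors in each of the 6 libraries, with a black line at each group mean. In HSPA5 the Control libraries sit between 112 and 148 and the SMP libraries between 367 and 488, whereas DNAJB9 overlaps and SIL1 is lower in SMP.

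In 9 of 11 chaperones and folding factors every SMP library was above every Control library, and in 1 (SIL1) below, where 21.1% and 11.5% of all tested genes did so. Summed over the 11 genes, the level was 979, 661 and 882 FPKM in Control against 2046, 2026 and 1596 in SMP. Their reads made 0.212% to 0.324% of the library total in Control and 0.525% to 0.646% in SMP.

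The count of changed chaperones depended on which libraries were in the fit. Of the 7 that rose, 5 kept their call without Control replicate 2, all 7 without SMP replicate 3, 2 without Control replicate 1, and 0 without Control replicate 3, SMP replicate 1 or SMP replicate 2. The share of all tested genes called higher was 0.784% without Control replicate 1, 4.66% without Control replicate 2 and 6.79% without SMP replicate 3, and 0.234%, 0.227% and 0.175% in the last 3 of these fits. HSPA5 was nearest to the threshold there, with adjusted p-values of 0.0518, 0.0582 and 0.0596 and log2 differences of 1.76, 1.67 and 1.64. In the same 3 fits DNAJC3 had adjusted p-values of 0.112, 0.105 and 0.129, HYOU1 of 0.112, 0.108 and 0.128, and UGGT1 of 0.134, 0.144 and 0.152. CALR, DNAJB11 and HSP90B1 lay between 0.151 and 0.185. Without Control replicate 1, HYOU1 (0.0513), UGGT1 (0.0567), HSP90B1 (0.0694), CALR (0.0791) and DNAJB11 (0.0831) lost their calls, and without Control replicate 2, CALR (0.0525) and DNAJB11 (0.0618) did. Without both Control replicate 2 and SMP replicate 3 all 7 passed, with adjusted p-values from 0.00303 to 0.0142, in a fit that called 15.8% of all tested genes higher.

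**Figure D3:**
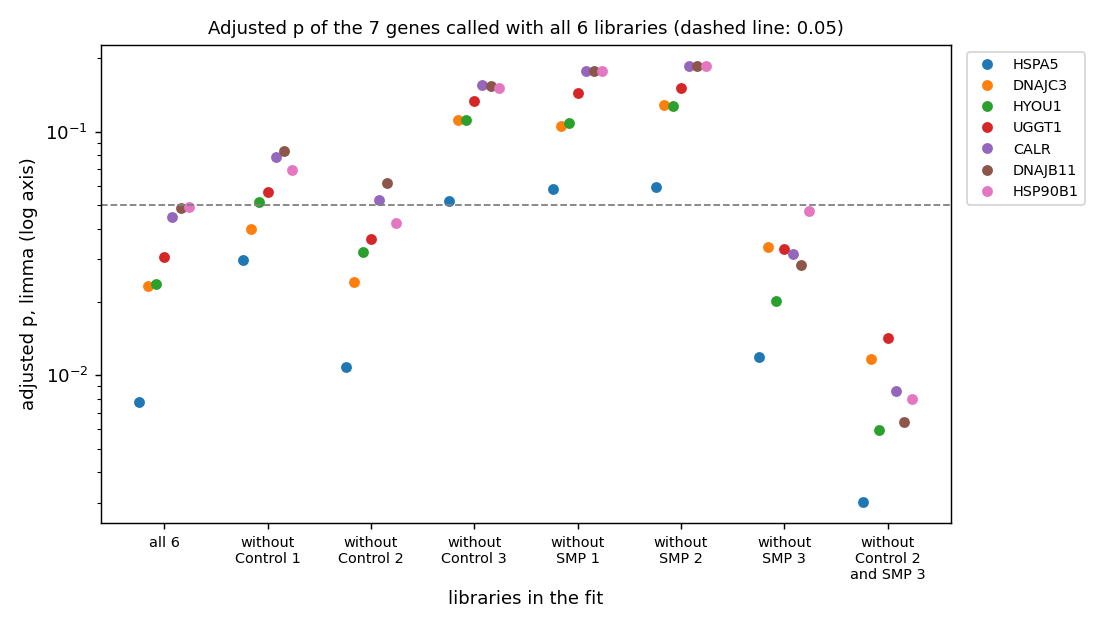
Adjusted p (limma, log axis) of the 7 genes called with all 6 libraries, in fits without each library named on the horizontal axis, with a dashed line at 0.05. HSPA5 stays between 0.00303 and 0.0596 across these fits, and all 7 points lie above the line without Control replicate 3, SMP replicate 1 or SMP replicate 2.

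Disulfide bonds in the ER are made by thiol oxidoreductases of the protein disulfide isomerase family, which the ERO1 oxidases recharge. Of 8 genes of this kind 0 passed the test, although all 8 had positive differences (0.16 to 0.92), as 58.9% of all tested genes had, and 5 were higher at an unadjusted p under 0.05, beside 16.5% of all. Voom passed 1 of them, PDIA4. In 6 of 8 the groups did not overlap, SMP being higher, beside 21.1% of all tested genes.

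PDIA4 (ENSSSCG00000015453), an isomerase of the ER lumen, was at 170, 121 and 142 FPKM in Control and at 317, 301 and 210 in SMP. Every SMP library was higher, with SMP replicate 3 the nearest to Control. Its difference was 0.92 (SE 0.22, adjusted p = 0.0574). PDIA6 (ENSSSCG00000008633), an isomerase that also acts on IRE1, was at 52.9, 47.2 and 51.2 in Control and at 109, 103 and 63.5 in SMP (log2 difference 0.81, SE 0.22, adjusted p = 0.0819). PDIA3, the isomerase that partners calnexin and calreticulin, was at 362, 311 and 338 in Control and at 543, 544 and 396 in SMP (adjusted p = 0.119).

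CRELD2, an ER protein induced by ER stress, was at 51.8, 46.8 and 52.2 FPKM in Control and at 113, 107 and 48.1 in SMP. SMP replicate 3 thus lay inside the Control range, and the other SMP libraries were far above it (adjusted p = 0.217). Without SMP replicate 3, PDIA4, PDIA6, PDIA3, CRELD2 and MANF all passed as higher, with adjusted p-values of 0.0289, 0.0164, 0.0343, 0.0150 and 0.0119. Over all alternatives their adjusted p-values reached 0.211, 0.262, 0.351, 0.485 and 0.330.

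P4HB (ENSSSCG00000039148), the founding protein disulfide isomerase, had the highest level of the 36 genes, with a mean of 845 FPKM over all libraries. It was at 818, 653 and 828 in Control and at 833, 866 and 1073 in SMP, so that the groups were separated by little (log2 difference 0.27, adjusted p = 0.386). The oxidases ERO1A and ERO1B had differences of 0.16 and 0.40 (adjusted p = 0.583 and 0.130). DNAJC10, an ER disulfide reductase with a J domain, was at 6.97 ± 1.04 and 9.90 ± 0.972 (adjusted p = 0.121).

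None of the sensors, nor XBP1, passed the test. XBP1 (ENSSSCG00000030996), whose RNA IRE1 splices to make the active factor, was at 37.8, 26.3 and 33.0 FPKM in Control and at 39.7, 41.0 and 40.2 in SMP. The SMP libraries were nearly level, just above Control replicate 1 (log2 difference 0.32, SE 0.16, adjusted p = 0.273). A value per gene does not separate spliced from unspliced XBP1 RNA.

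ATF6 (ENSSSCG00000006346), activated by cleavage in the Golgi, was at 5.39, 4.13 and 4.15 FPKM in Control and at 5.50, 6.35 and 7.99 in SMP (log2 difference 0.45, adjusted p = 0.161). EIF2AK3 (ENSSSCG00000008208), the PERK gene, was at 3.06, 2.53 and 2.63 in Control and at 3.52, 3.97 and 3.18 in SMP (0.28, adjusted p = 0.243). ERN1 (ENSSSCG00000039909), the IRE1 gene, was at 2.44, 1.75 and 2.02 in Control and at 1.88, 1.58 and 1.87 in SMP (-0.14, adjusted p = 0.583). ERN1 was the single sensor whose groups overlapped. In 3 of these 4 genes every SMP library was above every Control library, beside 21.1% of all tested genes. Limma and voom passed 0 of the 4. At an unadjusted p under 0.05, 1 (ATF6) was higher, beside 16.5% of all tested genes. With array weights, which called 25.6% of all tested genes higher, ATF6 (adjusted p = 0.0475) and EIF2AK3 (0.0323) passed as higher. The sensors are switched on by changes of the proteins, which RNA levels do not show.

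Within a library, the level of BiP RNA against XBP1 RNA was higher in SMP. The ratio of HSPA5 to XBP1 was 3.92, 4.27 and 4.25 in Control and 11.9, 11.9 and 9.13 in SMP. No SMP value came near the Control values. HSPA5 over HERPUD1 ran from 12.5 to 14.2 in Control and from 36.3 to 59.8 in SMP, and HSPA5 over DNAJB9 from 24.9 to 53.6 and from 70.3 to 131. HSPA5 over SIL1 ran from 12.7 to 17.3 and from 61.0 to 83.3, and HSP90B1 over P4HB from 0.207 to 0.309 and from 0.343 to 0.612. These 5 ratios were chosen after the values were seen. Each had p = 0.1 in a two-sided exact permutation test over samples, also after adjustment over the 5, which is the smallest p that 3 against 3 samples allow.

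Genes of ER-associated degradation, several of which are known targets of XBP1 and ATF6, did not pass the test. Of 8 tested, limma and voom passed 0. At an unadjusted p under 0.05, 1 (SEL1L) was higher, beside 16.5% of all tested genes. Differences of the 8 ran from -0.30 to 0.53. HERPUD1 (ENSSSCG00000040663), a stress-induced partner of the HRD1 ligase, was at 10.4, 8.66 and 11.2 FPKM in Control and at 7.89, 9.04 and 10.1 in SMP. The groups overlapped (log2 difference -0.15, SE 0.15, adjusted p = 0.590).

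SEL1L (ENSSSCG00000002414), the adaptor of that ligase, was at 11.2, 6.95 and 9.19 FPKM in Control and at 12.0, 12.0 and 16.6 in SMP (0.53, adjusted p = 0.172). EDEM1, a mannosidase-like protein that marks misfolded glycoproteins, was at 13.3, 9.0 and 12.9 in Control and at 14.6, 16.7 and 15.8 in SMP (0.41, adjusted p = 0.200). In both, the groups were apart with SMP higher, as in 21.1% of all tested genes, Control replicate 2 being the lowest library. The other 5 tested genes, EDEM2, EDEM3, DERL2, SELENOS and the lectin OS9, overlapped between the groups, with adjusted p-values from 0.528 to 0.875.

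OS9 was at 76.9, 42.9 and 75.7 FPKM in Control and at 42.8, 47.3 and 64.7 in SMP, where Control replicate 2 was as low as SMP replicate 1. It passed as lower with array weights (-0.62, adjusted p = 0.0191) and without both Control replicate 2 and SMP replicate 3 (-0.75, adjusted p = 0.0113), whereas over all alternatives its adjusted p reached 0.825. SYVN1 (ENSSSCG00000039740), the HRD1 ligase gene, was under the mean of 1 FPKM and was not tested. It had 2, 3 and 6 reads in Control and 1, 1 and 0 in SMP, so that Control replicate 3 alone was above the floor of 3 reads. Whether reads of SYVN1 were missed in mapping was not tested.

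Translocation of new chains into the ER runs through the SEC61 channel, with SEC62 and SEC63 helping post-translational entry. SEC63 (ENSSSCG00000004382), the J-domain partner of BiP at the channel, was at 9.43, 7.98 and 7.99 FPKM in Control and at 11, 12.0 and 14.2 in SMP. The groups did not overlap (log2 difference 0.50, SE 0.15, adjusted p = 0.0941). SEC61A1, the channel itself, was also higher in every SMP library (41.4 ± 2.20 and 51.5 ± 3.23, adjusted p = 0.198). SEC61B and SEC62 overlapped between the groups (-0.21 and -0.05, adjusted p = 0.616 and 0.901). Of the 4 genes limma and voom passed 0. At an unadjusted p under 0.05, 1 (SEC63) was higher, beside 16.5% of all tested genes. In 2 of the 4 every SMP library was above every Control library, beside 21.1% of all. With array weights, which called 25.6% of all tested genes higher, SEC63 (adjusted p = 0.0150) and SEC61A1 (0.0445) passed as higher.

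**Figure D4:**
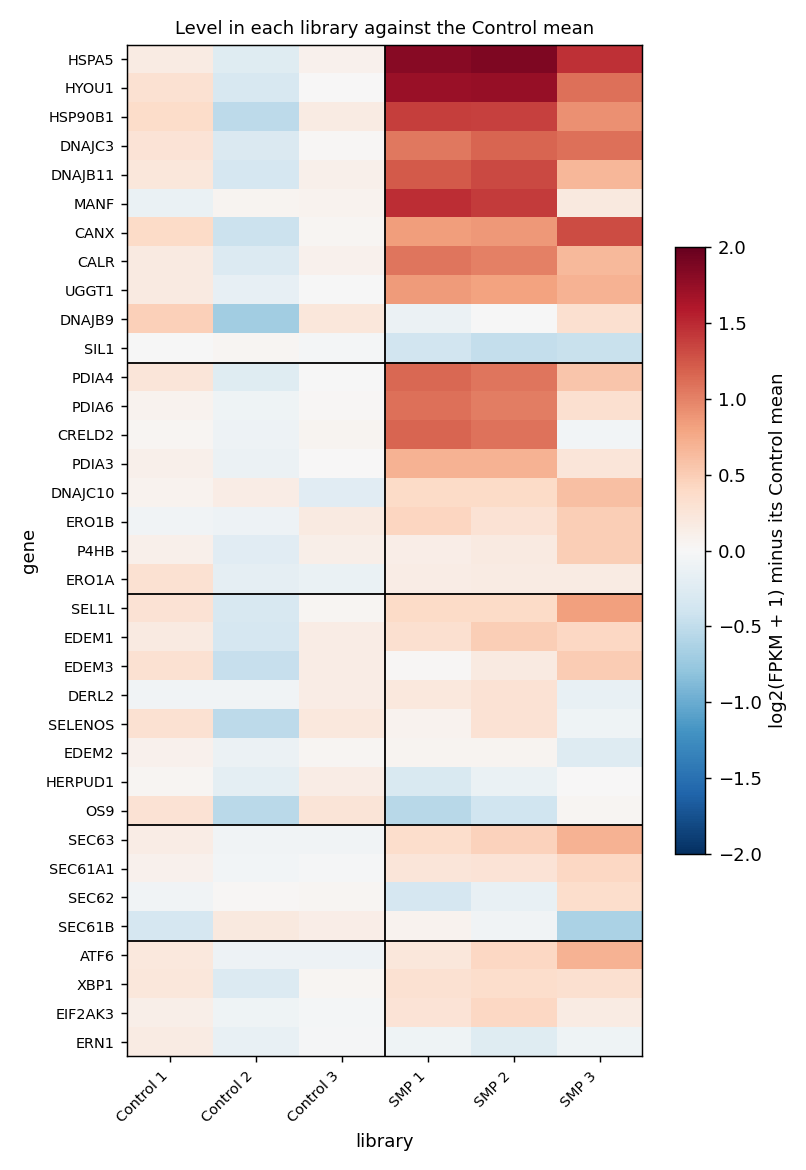
Level of the 35 tested genes (rows, by role, separated by lines) in each library (columns), as log2(FPKM + 1) minus the gene's Control mean. Most rows of chaperones and folding factors are above 0 in the 3 SMP libraries, SIL1 is below 0 in them, and MANF and CRELD2 are near 0 in SMP replicate 3.

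The SMP libraries differed among themselves in these genes, as they did over all tested genes. SMP replicates 1 and 2 lay together, and SMP replicate 3 was the lowest SMP library in 16 of the 35 tested genes and the highest in 13, beside 53.9% and 33.3% of all tested genes. It was at 0.417 times the mean of the other SMP libraries in MANF, 0.436 in CRELD2, 0.599 in PDIA6, 0.642 in HYOU1, 0.645 in DNAJB11 and 0.681 in PDIA4. It was at 1.37 times that mean in CANX, 1.38 in SEL1L, 1.44 in OS9 and 1.53 in SEC62, and nearly level with it in DNAJC3 (0.994). Control replicate 2 was the lowest Control library in 30 of the 35 genes, beside 46.6% of all tested genes.

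Beyond the 36 genes, 9 further lists by role held 111 tested genes of the pathway. Of these, 2 rose and 2 fell, where 3.5% and 2.1% of all tested genes did. The pooled count was thus near the background, but the lists differed among themselves. The best known targets of eIF2alpha phosphorylation and ATF4 had mostly negative differences. Of 10 tested, 1 rose and 2 fell, 8 had negative differences and the median was -0.47, where 58.9% of all tested genes had positive differences. At an unadjusted p under 0.05, 6 were lower and 1 was higher, beside 9.29% and 16.5% of all tested genes. In 7 every SMP library was below every Control library and in 1 above, beside 11.5% and 21.1% of all. Voom passed 3 as lower and 1 as higher, beside 2.35% and 4.05%. PPP1R15A (ENSSSCG00000003155), which encodes GADD34, the phosphatase subunit that resets eIF2alpha, was at 16.8, 17.9 and 16.6 FPKM in Control and at 9.61, 10.3 and 9.83 in SMP. The libraries of each group were nearly level and far apart between groups, and the level fell 1.73-fold (log2 difference -0.73, SE 0.12, adjusted p = 0.0246).

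DDIT4, an inhibitor of mTORC1 induced by stress, fell from 64.6 ± 4.97 to 34.1 ± 7.5 FPKM (adjusted p = 0.0449). SESN2, another such inhibitor, had levels of 9.36 ± 1.80 and 4.82 ± 0.867 (adjusted p = 0.0522) and passed as lower with voom. DDIT4 and SESN2 were picked with their values known. ASNS, asparagine synthetase and a textbook ATF4 target, was the 1 gene that rose, with means of 7.26 ± 1.26 and 12.7 ± 0.622 (log2 difference 0.74, adjusted p = 0.0429). ATF4 itself was not analysed here. DDIT3, the gene of the death-promoting factor CHOP, was at 0 to 0.12 FPKM in every library and was not tested. It had 0 to 2 reads per library, and whether reads of this gene were missed in mapping was not tested. Without SMP replicate 1 or 2, or Control replicate 1 or 3, PPP1R15A, DDIT4 and ASNS lost their calls (adjusted p-values from 0.0602 to 0.177), and DDIT4 did also without Control replicate 2 (0.0598).

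**Figure D5:**
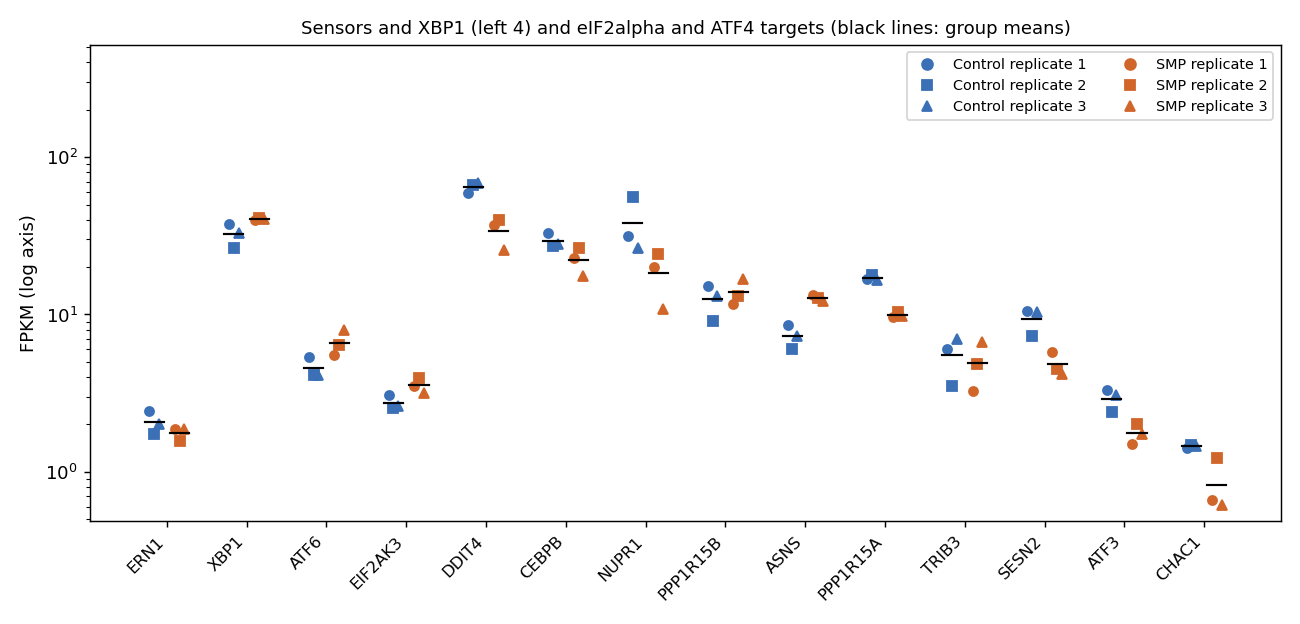
FPKM (log axis) of ERN1, XBP1, ATF6 and EIF2AK3 and of the 10 tested eIF2alpha and ATF4 targets in each library, with a black line at each group mean. XBP1 is at 26.3 to 41.0 in all 6 libraries, PPP1R15A and DDIT4 are lower in every SMP library, and ASNS is higher in every SMP library.

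Of 14 further disulfide isomerases and oxidoreductases, QSOX1, a sulfhydryl oxidase of the secretory pathway, rose from 16.9 ± 1.90 to 28.3 ± 2.76 FPKM (adjusted p = 0.0435), a call lost without any single library other than SMP replicate 3 (adjusted p = 0.0509 to 0.183). TXNDC5, an isomerase that plasma cells make in large amounts, was at 61.7 ± 4.79 and 40.5 ± 3.79 (adjusted p = 0.0603) and passed as lower with voom. AGR2, the isomerase that folds mucins in goblet cells, was at 32.9 ± 1.14 and 50.5 ± 11.8 (adjusted p = 0.123). At an unadjusted p under 0.05, 3 of these 14 genes were higher and 1 was lower. Limma passed 0 genes in each of the lists of other ER stress transducers (10 tested), prolyl isomerases (7), oligosaccharyltransferase subunits (10), glycan trimming (8), signal recognition, translocon and signal peptidase (18), other degradation factors (18) and COPII export with KDEL retrieval (16). Voom passed 1 gene of these lists, SEC24D. At an unadjusted p under 0.05 these lists had 1, 1, 3, 4, 3, 1 and 2 genes higher and 1, 0, 0, 0, 0, 0 and 0 lower. Over all tested genes 16.5% were higher and 9.29% lower at that threshold.

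Among the genes nearest to a call in those lists, SEC24D, a cargo adaptor of COPII vesicles, was at 6.84 ± 1.46 and 12.9 ± 1.85 FPKM (adjusted p = 0.0519). OSTC, a subunit of the oligosaccharyltransferase, was at 59.6 ± 6.44 and 88.2 ± 3.72, and VCP, the ATPase that extracts proteins from the ER, at 41.4 ± 0.863 and 58.8 ± 2.87 (adjusted p = 0.0670 and 0.0672). SSR1, a subunit beside the channel, was at 23.8 ± 1.79 and 34.8 ± 2.30 (adjusted p = 0.0673), LMAN1, a cargo receptor, at 16.8 ± 1.53 and 26.9 ± 4.94 (0.0755), and the glucosidase subunit GANAB at 32.3 ± 8.16 and 52.8 ± 2.59 (0.0864). In all 6 of these genes SMP had the higher mean. MBTPS1, the protease that makes the first cut in ATF6, was at 13.8 ± 1.39 and 19.7 ± 0.887, and the hepatic and intestinal factor CREB3L3 at 306 ± 27.1 and 180 ± 50.6 (adjusted p = 0.0812 and 0.0968). ERN2, the IRE1 form of mucous epithelia, was at 3.05 ± 0.511 and 3.40 ± 1.2 (adjusted p = 0.839), and its sign turned with quantile normalization (-0.06), median-ratio scaling (-0.01) and removal of the length trend (-0.00422).

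STT3B, SRP72, UBXN4, SEC23B, FKBP9 and FKBP14 completed the genes of smallest p in their lists. Their log2 differences were 0.69, 0.51, 0.39, 0.53, 0.62 and 0.40, with adjusted p-values from 0.102 to 0.246.

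Markers of cell types rich in ER, or of other cells, also differed between the groups, and their part in the chaperone differences was not tested. As background for the counts in all marker lists below, limma called 3.5% of all tested genes higher and 2.1% lower. At an unadjusted p under 0.05 these shares were 16.5% and 9.29%, and with voom they were 4.05% and 2.35%. Of the plasma and B cell list, 4 of 9 tested genes fell and 1 (SPIB) rose. At an unadjusted p under 0.05, 6 were lower and 2 higher, and voom called 5 lower and 1 higher. None of the 12 found was at 0 in any library, and the summed level was 266 to 374 FPKM in Control and 123 to 163 in SMP. The mean of MZB1, a folding factor for antibodies in the ER of plasma cells, fell from 83.8 ± 14.4 to 16.8 ± 3.28 (adjusted p = 0.00504) and kept its call without each library. That of JCHAIN, which joins antibody units, fell from 162 ± 60.7 to 36.7 ± 15.5 (adjusted p = 0.0343), a call lost without Control replicate 1 or 3 or SMP replicate 1 or 2 (0.0895 to 0.136). Goblet cell genes had 0 of 9 tested genes called by limma or voom (2 higher and 2 lower at an unadjusted p under 0.05), a summed level of 2295 to 2661 in Control and 628 to 1690 in SMP, and none at 0. TFF3, at 2012 ± 136 in Control and 883 ± 425 in SMP, made most of that sum. Of the 9 log2 differences 5 were positive and 4 negative, with a median of 0.09. MUC2 was at 37.6, 38.5 and 35.9 in Control and at 42.0, 47.0 and 19.5 in SMP.

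Among genes of dividing cells, 2 of 6 tested rose (TOP2A and MCM2) and 0 fell. All 6 had positive differences, 5 were higher at an unadjusted p under 0.05, and voom called 3 higher. None was at 0, and the summed level was 48.1 to 57.7 FPKM in Control and 134, 124 and 80.9 in SMP. TOP2A rose from 14.0 ± 1.45 to 36.0 ± 6.31 (adjusted p = 0.0174) and MCM2 from 8.37 ± 0.583 to 15.4 ± 2.76 (adjusted p = 0.0429), both calls being lost without Control replicate 1 or 3 or SMP replicate 1 or 2 (0.0517 to 0.182). MKI67 was not analysed here. Enterocyte genes had a summed level of 3334 to 4316 in Control and 4707 to 6251 in SMP, with 0 of 8 called by limma, 1 (FABP2) by voom, 2 higher at an unadjusted p under 0.05 and none at 0. Most of the rise in that sum lay in FABP2 (605 ± 172 and 1461 ± 482) and APOA4 (1170 ± 90.7 and 1694 ± 185). ANPEP, the enterocyte gene of highest level, was at 1667 ± 397 and 1599 ± 121, and the median log2 difference of the 8 was 0.21. Smooth muscle genes varied most, from 176 in Control replicate 3 to 2883 in Control replicate 2 and from 1653 to 2254 in SMP, with 0 of 9 called by limma or voom, 0 at an unadjusted p under 0.05 and none at 0. Fibroblast, pan-leukocyte and enteroendocrine lists had 0 of 8, 0 of 8 and 2 of 5 tested genes called (GCG higher, GIP lower), with 0, 4 and 1 lower and 0, 0 and 1 higher at an unadjusted p under 0.05, none at 0, and summed levels of 219 to 830, 100.3 to 161 and 130.2 to 145 in Control and of 513 to 914, 73.0 to 88.9 and 82.4 to 94.8 in SMP. All 8 pan-leukocyte genes had negative differences, where 58.9% of all tested genes had positive ones. In 4 of the 8 every SMP library was below every Control library, beside 11.5% of all tested genes.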

How the data were processed

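RNA-seq values of 6 pig gut samples were grouped by the treatment label (3 Control, 3 SMP), and replicate numbers came from the titles. The submitters' processing notes name HISAT2 2.0.5, StringTie and DESeq2 1.16.1 without roles, and the mouse build mm10. The identifiers are pig Ensembl identifiers, so no coordinates are given. For strand use and multi-mapping reads the sources used here give nothing. The deposited values are FPKM for 21911 genes. Whole numbers (reads or read pairs) and library totals were recovered from the steps between values for 100% of genes, in lowest terms, at a relative tolerance of 5e-09. In simulated data 98.85% of 2966 genes came back exactly. Symbols were found for 14153 identifiers. Promoter and protein sequences were not used here.

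Genes averaging 1 FPKM or more were tested on log2(FPKM + 1) with limma 3.58.1 in R 4.3.3 (treatment only, empirical Bayes trend, Benjamini-Hochberg at 0.05 over 11471 genes). In simulated data with 11379 genes, the test found 80 of 100 true 2-fold changes and 98 of 100 true 4-fold changes, with 15 false calls. The simulation gave every gene the same relative spread, changed only well-counted genes and held no outlying library. These rates therefore need not hold for the real libraries. The members and lists were chosen with earlier results of these data known. The rule for named genes took members that passed, the sensors, XBP1, HSPA5, HSP90B1, HERPUD1, DNAJB9, the 2 of smallest p in each group or pathway list, and DDIT3, ATF4, ERN2, AGR2, MZB1, JCHAIN, MUC2 and MKI67. Other genes given by value were added after their values were seen. Lists are described by counts and medians. Alternatives were quantile normalization, median-ratio scaling, removal of a lowess length trend (span 0.4), no filter, a mean of 5 FPKM, pseudocounts of 0.1 and 0.5, a robust fit, gene-by-gene array weights, voom, the replicate number as a block, a log2 difference of 1 or more, and left-out libraries.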

Additional observations from a re-analysis of the deposited data

How the results depend on the processing

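With all libraries 7 of the 35 tested ER genes were higher and 0 lower. The count of higher genes was 11 with quantile normalization, 2 with no filter, 18 with array weights and 13 without Control replicate 2 and SMP replicate 3 together (3.32%, 0.721%, 25.6% and 15.8% of all tested genes), and from 0 to 12 with 1 library left out. Among chaperones and folding factors it was 2 with no filter (HSPA5 and DNAJC3), 9 without that pair and from 0 to 8 with 1 library left out. Lower genes numbered 1 with median-ratio scaling or the length trend removed, and 2 with array weights or without the pair. The cause was not tested. Same-numbered libraries had correlations of -0.31, 0.32 and -0.04 of their deviations from group means, and differently numbered ones from -0.31 to 0.38. With so few libraries these values cannot decide whether the numbers pair the samples. With the replicate block 2 genes, HSPA5 and HYOU1, were higher. None of the 7 genes changed sign in any alternative. Median-ratio scaling moved the median of all genes by -0.10.

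The median of the translocation genes was 0.18 with quantile normalization, 0.0094 with median-ratio scaling, -0.0034 with the length trend removed and from 0.12 to 0.22 with libraries left out. That of the sensors and XBP1 was 0.16 with the length trend removed.

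Signs turned in genes that passed no test. DNAJB9 was at -0.037 with quantile normalization, -0.036 with median-ratio scaling, -0.066 with the length trend removed and -0.23 with array weights. EDEM2 (0.019) and MUC2 (0.26) turned with array weights, DERL2 (-0.019) with the length trend removed and SELENOS (-0.030) with median-ratio scaling. ERN2 was at -0.057, -0.0077 and -0.0042 with quantile normalization, median-ratio scaling and the length trend removed. With libraries left out, the difference ran from -0.41 to 0.30 in DNAJB9, from -0.10 to 0.061 in EDEM2, from -0.13 to 0.39 in EDEM3 and from -0.17 to 0.24 in SELENOS. It ran from -0.38 to 0.094 in SEC61B, from -0.24 to 0.096 in SEC62, from -0.066 to 0.35 in ERN2 and from -0.37 to 0.27 in MUC2.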
